A study of Mus musculus with 12 samples.

Results

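Imprinted genes are expressed from only the maternal or only the paternal copy, and several of them set the growth of the fetus before being turned down after birth. 9 such genes are described here across the cells of the mouse liver before and after birth: Igf2, Dlk1, Grb10, Cdkn1c, Plagl1, Peg3, Zim1, Ndn and Mest. They were taken by symbol, all 9 were found, and they are 9 of the 22519 genes listed at both stages (31053 in the embryonic list and 22597 in the postnatal one). Their products act at different points of growth control, as secreted or surface ligands, a brake on receptor signalling, a cyclin-dependent kinase inhibitor and nuclear regulators. In the fetal liver, blood formation fills most of the organ, while the less numerous hepatocyte precursors (hepatoblasts), stellate and other mesenchymal cells and sinusoidal endothelium form the tissue around it.

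Droplet-based single-cell RNA counts from whole liver were deposited for mice carrying the Nodder (Ndr) allele of Jag1, a Notch ligand, at embryonic day E16.5 and at postnatal day 3 (P3). The labels named 3 genotypes at each stage, Jag1+/+, Jag1Ndr/+ and Jag1Ndr/Ndr, all from crosses of heterozygotes, with 2 samples of each. Nothing in the labels says whether samples of a group came from separate litters, so p-values measure the spread between these samples. The 12 matrices held 9 separate barcode sets, 5 at E16.5 and 4 at P3, which are called libraries here. At E16.5 these were Jag1+/+ replicate 1, a shared library deposited identically as Jag1+/+ and as Jag1Ndr/+, Jag1Ndr/+ replicate 1, and Jag1Ndr/Ndr replicates 1 and 2. At P3, libraries A and B were deposited as Jag1+/+, but 68.4% of the barcodes of A recurred in 1 matrix labelled Jag1Ndr/Ndr, and 62.1% of those of A and 73.8% of those of B in the other. All 15754 barcodes of a Jag1Ndr/+ matrix also lay among the 21880 of B, so their genotype is unclear. Library C, the 15145 barcodes of the first Jag1Ndr/Ndr matrix that were not in A, carried that label only and library D the Jag1Ndr/+ label only. Homozygous pups had been picked by jaundice, and TrypLE was added to the digestion at E16.5 only, per the labels' protocols. Stage therefore cannot be told apart from this enzyme, nor from the version of the counting software or the list of genes counted, which also differed between stages.

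Barcodes with at least 1000 unique molecular identifiers (UMIs, 1 per captured RNA molecule) and at most 15% mitochondrial UMIs were used, 15024 to 29034 per library, with median depths of 5325 to 9256 UMIs in the fetal libraries and 2961 to 6235 in the P3 libraries. Total UMI counts per library ran from 75745209 to 258642858, and the barcodes shared by any pair of libraries came to at most 0.940% of the smaller set. Levels are given in CPM, the UMI count of a gene scaled to a common total of UMIs in a library or in 1 cell class of it, and per-library values are listed in the order given above, the shared library second and libraries A to D last. Cell classes came from clustering without these 9 genes and without the other imprinted genes listed, and were named from marker genes, hence hepatocyte-like and so on. The hepatocyte-like class held 683 cells at E16.5 and 185 at P3, and its 10 hepatocyte markers together reached 137243 to 188479 CPM before birth and 131669 to 187377 CPM after it, ranges that overlapped. The requirement of at least 10000 CPM of Alb for that class was set after the data were seen. It left aside unnamed clusters with fewer hepatocyte RNAs, which made up 2.77 to 8.47% of kept barcodes at E16.5 and 1.01 to 3.55% at P3.

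The ligands are Igf2, a fetal growth factor that signals through the IGF1 receptor (GRCm38 chr7:142650766-142666816, minus strand), and Dlk1, a transmembrane relative of Notch ligands and a marker of hepatoblasts (chr12:109452823-109463336, plus strand). Grb10 is an adaptor that dampens insulin and IGF receptor signalling (chr11:11930508-12038683, minus strand), and Cdkn1c encodes the cell cycle inhibitor p57 (chr7:143458339-143461050, minus strand). The nuclear factors are the zinc finger genes Plagl1 (chr10:13060504-13131694, plus strand), Peg3 (chr7:6703892-6730431, minus strand) and its neighbour Zim1 (chr7:6671269-6696450, minus strand), together with Ndn, whose product necdin restrains proliferation (chr7:62346569-62350262, plus strand). Mest, also called Peg1, encodes a protein of the alpha/beta hydrolase fold (chr6:30723547-30748465, plus strand). All 9 spans, from GENCODE M21, are those of the whole annotated protein-coding gene, untranslated regions included. The Igf2 level is uncertain, because the annotated gene Gm49394 on the same strand covers 62.8% of its exonic bases, including 497 of the last 500, and the counting of such reads was not stated. The last 500 bases of Mest all lie opposite exons of Copg2, and whether counting used the strand was not stated either.

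PLAGL1 is known to bind a GC-rich core, GGGGCCCC, which reads alike on both strands. This core was searched in the 250 bases upstream of each annotated start in the RefSeq promoter table (GRCm38.p6), which held 14 such windows for 8 of the genes and none for Cdkn1c. It was found in 1 window, that of Peg3, and in 0.889% of all 32851 windows of this length in the table. The Peg3 window (chr7:6730420-6730669, minus strand) and the Dlk1 window (chr12:109452573-109452822, plus strand) are shown because these genes lie at the ends of the range of change found in hepatocyte-like cells. Both read 5′ to 3′, with the core in capitals. Each holds 8 CpG dinucleotides, against a median of 6 over all windows.
Peg3: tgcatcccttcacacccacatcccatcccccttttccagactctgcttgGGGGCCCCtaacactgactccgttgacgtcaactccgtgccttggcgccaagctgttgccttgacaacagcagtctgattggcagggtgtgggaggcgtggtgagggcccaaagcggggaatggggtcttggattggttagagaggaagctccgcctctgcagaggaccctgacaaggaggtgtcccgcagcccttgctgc
Dlk1: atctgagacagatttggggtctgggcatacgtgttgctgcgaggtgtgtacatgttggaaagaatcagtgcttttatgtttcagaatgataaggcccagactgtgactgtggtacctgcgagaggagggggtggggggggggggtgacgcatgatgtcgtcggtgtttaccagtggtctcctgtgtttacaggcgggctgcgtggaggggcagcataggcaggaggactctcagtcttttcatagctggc
A match describes these letters only and is not evidence that a factor is bound there.

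In whole libraries, all 9 genes were lower at P3 than at E16.5, as were 25.8% of the 14415 genes tested. Their median log2 fold change was -2.64, against 0.02 over all genes. Igf2 stood at 3.63, 6.19, 3.70, 4.29 and 4.45 CPM at E16.5 and at 0.963, 1.20, 0.312 and 0.491 CPM at P3, and Dlk1 at 34.8, 70.6, 39.9, 35.6 and 62.5 CPM against 15, 6.53, 5.14 and 1.66 CPM. For both ligands every P3 library lay below every E16.5 library, and among the P3 libraries Dlk1 was highest in library A and lowest in library D. The log2 fold change was -3.12 (adjusted p = 4.41e-05, SE 0.34) for Igf2 and -3.28 (adjusted p = 0.00123, SE 0.57) for Dlk1 by the quasi-likelihood test of edgeR, adjusted after Benjamini and Hochberg, which stands behind every adjusted p below. Over the fits without 1 library the estimate ran from -3.38 to -2.87 for Igf2 and from -4.01 to -2.95 for Dlk1.

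Grb10 read 35.7, 49.4, 24.8, 32.8 and 34.4 CPM before birth and 14.2, 14, 12.1 and 15.7 CPM after it, with no overlap. Its log2 fold change of -1.88 had a standard error (SE) of 0.10. Cdkn1c, the cell cycle inhibitor, was at 27.8 to 40.1 CPM and then at 5.62 to 9.40 CPM (log2 fold change -2.78), and Mest at 21.9 to 52 CPM and then at 4.79 to 9.15 CPM (-2.70). Among the nuclear factors, Peg3 was at 15.2 to 35.9 CPM before birth and 5.57 to 13.1 CPM after it. Plagl1 was at 5.02 to 8.58 and 1.93 to 3.47 CPM and Zim1 at 0.844 to 2.39 and 0.0924 to 0.501 CPM, again without overlap between the stages. Ndn was the exception, at 1.07, 1.14, 1.35, 1.58 and 1.28 CPM at E16.5 and 1.52, 1.38, 0.762 and 0.586 CPM at P3, where libraries A and B lay within the E16.5 range. Its log2 fold change of -0.88 (adjusted p = 0.0451, SE 0.33) lost its call in 6 of the 9 fits that left out 1 library, with estimates between -1.14 and -0.67 over all 9, and was not called with replicate number as a block (-0.88, adjusted p = 0.0576), after thinning (-0.71, adjusted p = 0.108) or with library totals (-0.26, adjusted p = 0.482).

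These totals mix cells in different numbers, and in such sums fewer cells of a type and less RNA per cell cannot be told apart. Hepatocyte-like cells made up 0.506 to 1.21% of kept barcodes at E16.5 and 0.147 to 0.408% at P3, and Alb in whole libraries was at 1546 to 3381 CPM and then at 202 to 315 CPM. At E16.5 the class gave 2.02% of all UMIs on average but 54.2% of the Dlk1 UMIs, 53.9% of those of Igf2, 45.5% for Peg3, 40.2% for Cdkn1c, 38.5% for Zim1 and 35% for Grb10. At P3 it gave 1.68% of the Dlk1 UMIs, while the Col1a1-led mesenchymal-like class, with 0.22% of all UMIs, gave 58.9% of them. Mest came mainly from endothelial-like cells at both stages, with 55.2% and 62.3% of its UMIs. Of the Grb10 UMIs at P3, 48.15% lay in unnamed barcodes (21.33% of all UMIs) and 17.01% in hepatocyte-like cells. An unnamed P3 cluster of 3971 cells, with Car1 among its leading genes, held Grb10 at 32.3 CPM. Another at E16.5, of 2235 cells, held it at 54.4 CPM. Erythroid-like cells held Grb10 at 10.9 to 22.7 CPM at E16.5 and 1.82 to 2.67 CPM at P3.

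**Figure D1:**
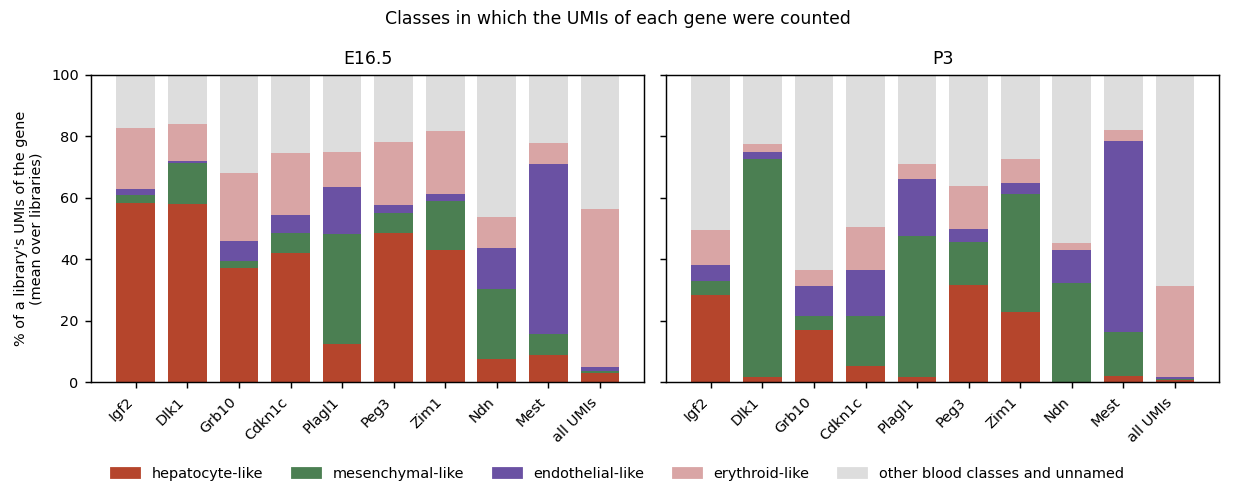
Stacked bars give the percentage of each gene's UMIs counted in hepatocyte-like, mesenchymal-like, endothelial-like, erythroid-like and all other barcodes, as means over the 5 E16.5 libraries (left) and the 4 P3 libraries (right), with the same for all UMIs in the last bar. The hepatocyte-like part at E16.5 includes the shallow hepatocyte-like cluster described below, and the mesenchymal-like part joins the Col14a1-led and Col1a1-led classes. The main source of Dlk1 passes from hepatocyte-like cells to mesenchymal-like cells, whereas Mest stays mainly endothelial-like.

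Within hepatocyte-like cells, Dlk1 was nearly lost by P3. Cdkn1c, Plagl1, Mest, Igf2, Zim1 and Grb10 fell too, in that order of estimated fold change, and Peg3 did not pass the test. Of the 8 genes that passed the low-count filter (Ndn did not), 7 were lower at P3, beside 18.8% of the 9749 genes tested in this class. A gene high at E16.5 alone passes such a filter by being high there, so this count is a description.

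Dlk1 read 1139, 1398, 1284, 1024 and 1816 CPM in the E16.5 libraries and 13.1, 10.01, 5.35 and 10.05 CPM in the P3 libraries, the latter from 18, 5, 2 and 5 UMIs. The lowest E16.5 library was far above the highest P3 library, and the log2 fold change was -6.77 (adjusted p = 1.54e-11, SE 0.28). After every barcode was thinned to 1000 UMIs, 49.5 to 73.8% of hepatocyte-like cells held a Dlk1 UMI at E16.5 and 0 to 2.22% at P3 (unthinned 97 to 99.3% and 5.13 to 19.2%, at median depths of 18230 to 27670 and 9220 to 21600 UMIs). Erythroid-like cells, which should lack the gene, held one in 0.916 to 1.92% and 0.0128 to 0.198% of thinned barcodes, at unthinned median depths of 4952 to 9779 and 2592 to 5349 UMIs. The other ligand, Igf2, was at 122, 114, 115, 147 and 119 CPM and then at 37.7, 50.03, 24.1 and 16.1 CPM. Again no P3 library reached the E16.5 range, and the log2 fold change was -1.67 (adjusted p = 1.30e-05, SE 0.22).

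Cdkn1c stood at 793, 548, 669, 992 and 553 CPM at E16.5 and at 38.5, 44, 58.8 and 74.4 CPM at P3. The groups did not overlap, the log2 fold change was -3.52 (adjusted p = 1.58e-08, SE 0.24), and the thinned share of positive cells was 33.8 to 59.6% before birth and 5.13 to 12.8%. Grb10, the adaptor that dampens insulin signalling, was at 766, 610.3, 485, 729.9 and 600.1 CPM against 291, 300.2, 473 and 452 CPM. Its P3 libraries C and D came close to the lowest E16.5 library without reaching it. The log2 fold change of -0.51 (adjusted p = 0.0345, SE 0.19) lost its call in 6 of 9 fits without 1 library and was -0.21 (adjusted p = 0.397) without libraries A and B and -0.28 (adjusted p = 0.236) with the deep and shallow classes merged. No shallow class was present at P3, so merging added shallow barcodes at E16.5 only. Grb10 was lower in these than in the deep barcodes in 5 of 5 libraries, so the merged value is no check of the fall.

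Peg3, a zinc finger gene, read 433, 594, 467, 411 and 609.7 CPM at E16.5 and 435, 364, 356 and 524 CPM at P3. The stages overlapped, and the log2 fold change of -0.03 (adjusted p = 0.907, SE 0.17) missed the threshold. The thinned share of positive cells overlapped too, at 31.3 to 39.3% and 21.7 to 40.00%. Its neighbour Zim1, at lower counts, was at 16, 32.7, 29.1, 20.8 and 33.7 CPM and then at 13.8, 6, 5.35 and 14.1 CPM, a log2 fold change of -1.08 (adjusted p = 0.0184, SE 0.35). Every P3 library of Zim1 lay below every E16.5 library, though P3 libraries A and D came within 3 CPM of the lowest, and the call was lost without library B or without library C.

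Plagl1 was counted at 50.8, 32.5, 53.8, 15 and 45.2 CPM at E16.5 and at 3.63, 0, 5.35 and 12.1 CPM at P3, with 0 UMIs in library B. Mest, the hydrolase fold gene, was at 180.2, 87.8, 222, 81.7 and 121 CPM and then at 12.3, 10.01, 40.1 and 38.2 CPM. Neither gene overlapped between the stages, and their log2 fold changes were -2.81 (adjusted p = 0.00653, SE 0.66) and -2.41 (adjusted p = 0.00620, SE 0.53). Ndn was near the detection limit, at 6.40, 3.06, 7.12, 3.47 and 4.82 CPM at E16.5 and at 1 UMI over all 4 P3 libraries. It was called lower without the low-count filter (-3.44, adjusted p = 0.00451) and, where it then passed the filter, without any 1 P3 library (-6.43 without A and -3.22 to -3.14 without B, C or D, adjusted p = 0.0160 to 0.0229), fitted values that rest on that UMI, or on 0 without A, and are no bounds. Without libraries A and B, 3 of the 7 genes kept their calls, namely Dlk1, Cdkn1c and Igf2.

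Markers of another class moved with these values. The 12 mesenchymal markers summed to 167 to 513 CPM in hepatocyte-like cells at E16.5 and to 36.0 to 147 CPM at P3, with Acta2 at 0 there at P3, while Reln, a stellate cell gene, was at 84.8 to 156 CPM and then at 8.01 to 37.4 CPM. The same markers summed to 1439 to 3303 CPM at E16.5 and to 5507 to 7180 CPM at P3 in the Col14a1-led mesenchymal-like class. Mean levels of Plagl1, Mest, Ndn and Zim1 were higher there than in hepatocyte-like cells at both stages. For Zim1 the means were 29.9 against 26.5 CPM at E16.5 and 28.1 against 9.80 CPM at P3, with overlapping ranges at both stages. For Mest at E16.5 the ranges overlapped, at 176 to 431 CPM against 81.7 to 222 CPM. Kdr, an endothelial gene, had 122, 105, 244, 74 and 114 UMIs in hepatocyte-like cells at E16.5 and 42, 15, 15 and 24 at P3. Mest had 394, 373, 778, 212 and 453 and then 17, 5, 15 and 19 UMIs there. In endothelial-like cells Kdr had 1020, 1900, 770, 1132 and 1347 and then 718, 542, 618 and 405 UMIs. Mest had 2826, 4366, 1768, 2768 and 2693 and then 520, 250, 568 and 373 UMIs in those cells. The part of mesenchymal and endothelial RNA in the hepatocyte-like values of Plagl1, Mest, Ndn and Zim1 was not tested. Alb itself was at 55773 to 74593 CPM at E16.5 and 22729 to 32582 CPM at P3 in hepatocyte-like cells, and Hbb-bs, an erythroid globin, at 28146 to 51369 and 4133 to 12103 CPM.

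**Figure D2:**
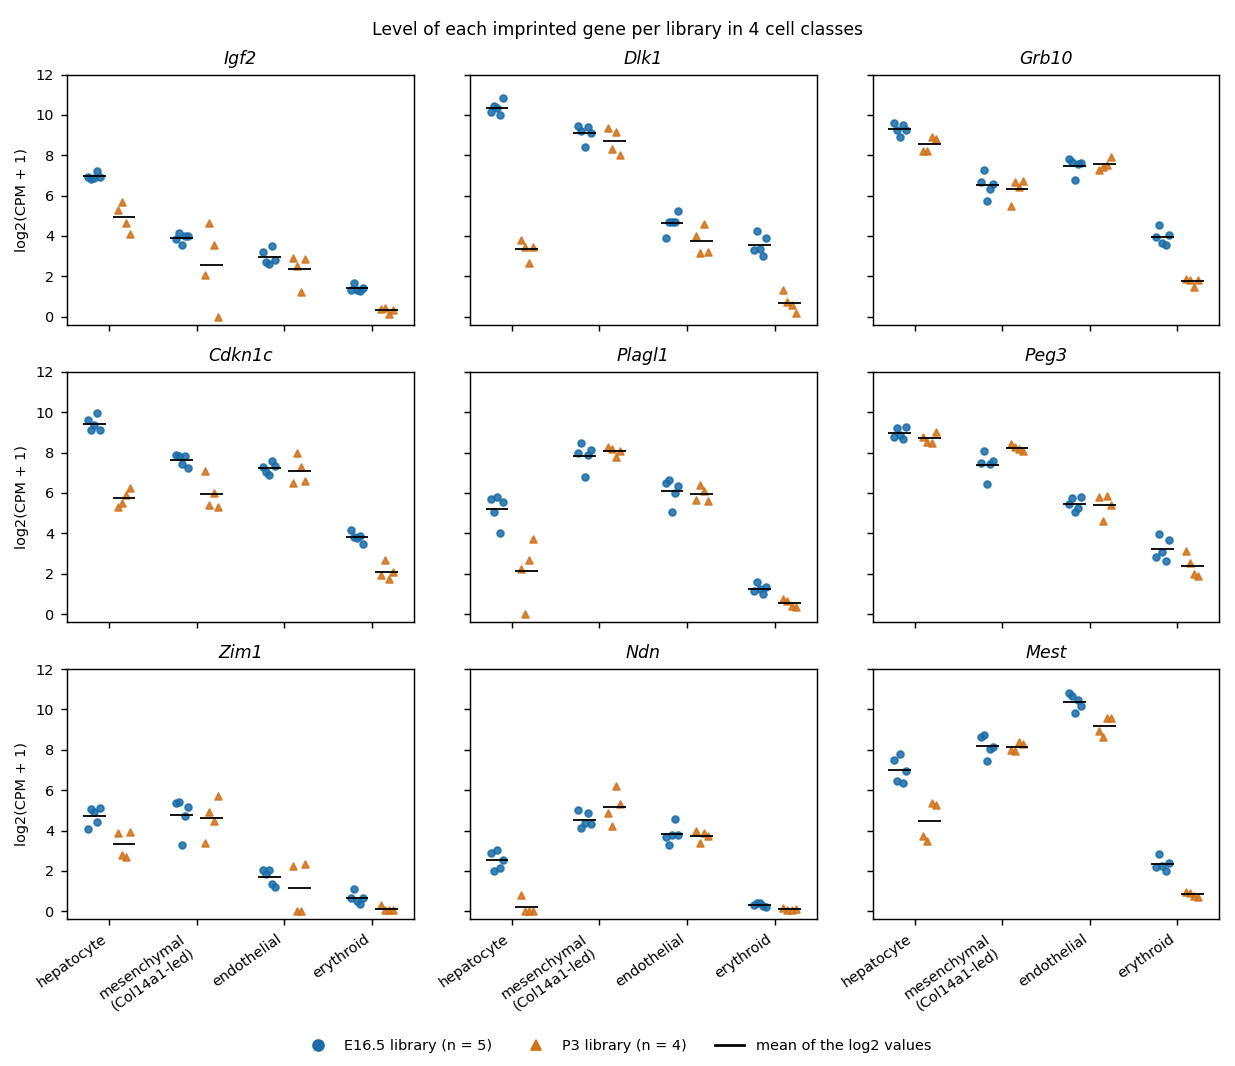
Each panel shows 1 gene, with log2(CPM + 1) per library on the vertical axis and 4 cell classes on the horizontal axis, circles for the 5 E16.5 libraries, triangles for the 4 P3 libraries and black lines for the mean of the log2 values. Dlk1 drops in hepatocyte-like cells but not to that extent in mesenchymal-like cells, Peg3 overlaps between the stages in hepatocyte-like and endothelial-like cells, and Mest is highest in endothelial-like cells.

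At E16.5 a second hepatocyte-like cluster of 1526 shallow barcodes, with a median of 3921 UMIs against 23248, allowed a comparison within the stage. All 9 genes were higher in the deep barcodes than in the shallow ones in 5 of 5 libraries. The share of all genes with this pattern was not computed, so the count is a description. The ratio of mean levels was 6.49 for Dlk1, 5.39 for Igf2, 7.08 for Grb10, 9.15 for Cdkn1c and 6.85 for Peg3. It was 3.64 for Zim1, 15.6 for Mest, 17.2 for Plagl1 and 18.1 for Ndn, beside 3.15 for Alb. Globin RNA lay the other way. The shallow class gave 0.863% of all UMIs on average, against 2.02% for the deep class. It held 228892, 225893, 640781, 355544 and 372187 Hbb-bs UMIs, against 76403, 119543, 180316, 123905 and 109354 in the deep class. The part of globin RNA in the ratios was not tested. The unnamed cluster with hepatocyte RNAs held Dlk1 at 32.9 CPM at E16.5 (5029 barcodes), and the largest such cluster at P3 held it at 4.07 CPM (1258 barcodes).

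In the mesenchymal-like class led by Col14a1, a fibril-associated collagen gene typical of stellate and fibroblast cells, Cdkn1c was the only 1 of the 9 genes that fell in every alternative run. All 9 passed the filter and 4 were lower at P3, beside 13.3% of the 5523 genes tested. Cdkn1c read 234, 229, 169, 227 and 147 CPM at E16.5 and 134, 41.3, 63.4 and 39.1 CPM at P3, without overlap, a log2 fold change of -1.94 (adjusted p = 3.55e-05, SE 0.32). The P3 values of Cdkn1c came from 42, 7, 6 and 3 UMIs. Its estimate ran from -2.79 to -1.79 over the fits without 1 library. Dlk1 was at 690.1, 579, 341, 669 and 540.2 CPM and then at 658, 313, 571 and 261 CPM, so the stages overlapped. Its log2 fold change was -0.93 (adjusted p = 0.00812, SE 0.28), and those of Grb10 and Mest were -0.87 (adjusted p = 0.0110, SE 0.27) and -0.72 (adjusted p = 0.0126, SE 0.23).

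Those 3 calls depended on the scaling and were all lost after thinning. Library totals moved the median of all genes to 0.16 over the 11 classes pooled, and the median in this class alone was not computed. Erythroid markers summed to 356216 to 602497 CPM in this class at E16.5 and to 193205 to 401921 CPM at P3. The 10 hepatocyte markers were at 2746 to 3102 CPM and then at 547 to 2314 CPM, the 10 endothelial markers at 89.2 to 153 and 177 to 391 CPM and the 8 dendritic markers at 2.18 to 3.30 and 11.8 to 42.3 CPM, each without overlap. The part of these markers in the falls of Cdkn1c, Dlk1, Grb10 and Mest was not tested. With library totals in place of TMM factors (edgeR's trimmed-mean scaling), the log2 fold changes were -0.27 for Dlk1 (adjusted p = 0.484), -0.26 for Grb10 (adjusted p = 0.616) and -0.10 for Mest (adjusted p = 0.823), none of them called. Grb10 was not called without library A (-0.61, adjusted p = 0.0919), without A and B (-0.92, adjusted p = 0.0516) or with the 2 mesenchymal-like classes merged (-0.26, adjusted p = 0.388), nor was Dlk1 when they were merged (-0.18, adjusted p = 0.726). The estimates of Dlk1, Grb10, Mest and Peg3 each lay higher with library totals than with TMM factors. The part of this shift in the Peg3 value was not tested. With library totals Peg3 was called higher at P3, by 0.81 (adjusted p = 0.0228), as it was after thinning, by 1.50 (adjusted p = 1.83e-04).

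The Peg3 levels behind this were 175, 269, 85.6, 170.1 and 187 CPM at E16.5 and 340.3, 307, 285 and 274 CPM at P3. Every P3 library was above every E16.5 library in plain CPM, while the TMM-scaled log2 fold change was 0.23 (adjusted p = 0.453, SE 0.24). Plagl1, most abundant in mesenchymal-like cells, was at 253, 351, 109, 236 and 275 CPM and then at 312, 289, 222 and 274 CPM, which overlapped, and its estimated change was -0.37 (adjusted p = 0.24, SE 0.25). It was called lower without libraries A and B (-0.88, adjusted p = 0.0385) and with the classes merged (-0.72, adjusted p = 0.00669). Mest was at 176 to 431 CPM at E16.5 and 242 to 338 CPM at P3, and Grb10 at 53 to 154 and 44.5 to 104 CPM. Ndn (16.7 to 31.9 and 17.7 to 74 CPM), Zim1 (8.71 to 41.7 and 9.54 to 52.1 CPM) and Igf2 (10.9 to 16.7 and 0 to 23.6 CPM) overlapped between the stages and did not pass the test, except that Zim1 was called lower without the low-count filter (-1.14, adjusted p = 0.0291) and without Jag1Ndr/+ replicate 1 (-1.09, adjusted p = 0.0310), and Igf2 without P3 library B (-2.37, adjusted p = 0.0150), against -1.15 to -0.61 without any 1 of the other P3 libraries. In P3 libraries A to D, Igf2 had 1, 4, 1 and 0 UMIs here, Zim1 3, 5, 2 and 4, and Ndn 9, 3, 7 and 3. These values lie near the detection limit.

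**Figure D3:**
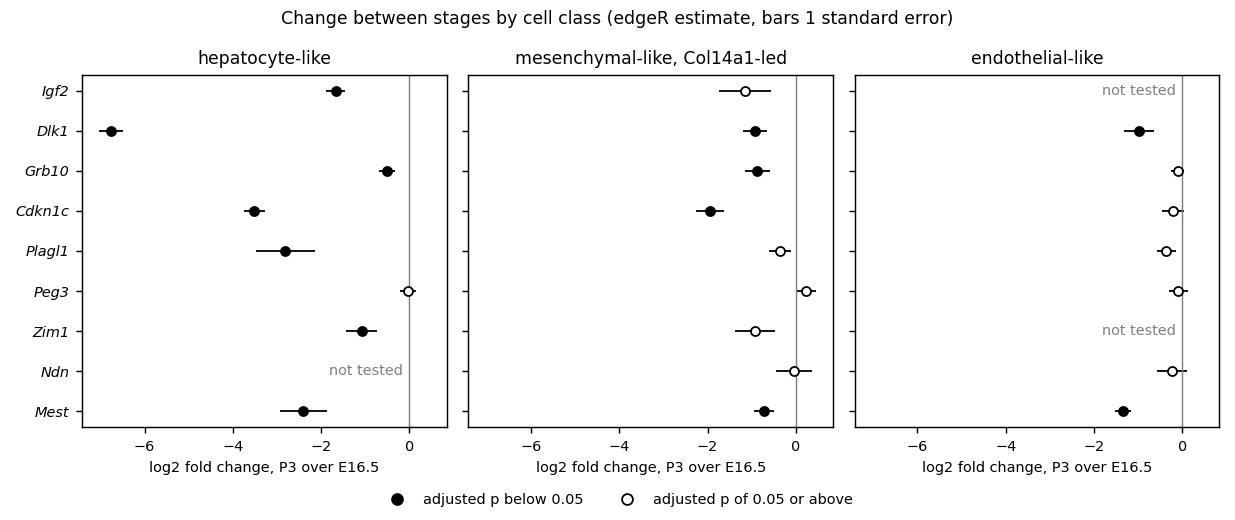
Points give the log2 fold change of P3 over E16.5 for each gene in hepatocyte-like, Col14a1-led mesenchymal-like and endothelial-like cells, bars 1 standard error, filled points an adjusted p below 0.05. Dlk1 lies at -6.77 in hepatocyte-like cells and at -0.93 and -0.98 in the other classes, and Peg3 at -0.03, 0.23 and -0.09.

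Sub-clusters of this class differed widely in these genes, which took no part in the clustering. At E16.5, 71 cells led by Dcn and Col3a1 held Dlk1 at 2413 CPM, Plagl1 at 1181 CPM, Mest at 1142 CPM, Cdkn1c at 1007 CPM and Peg3 at 879.8 CPM, whereas another 167 cells led by these genes held 57.7, 17, 48.8, 19.96 and 11.8 CPM. These were the ends of a graded range at E16.5, with Dlk1 at 931, 212 and 145 CPM in the sub-clusters between them. At P3 the sub-clusters held Dlk1 at 1171 CPM in 54 cells and at 108 CPM in 79 cells, and Plagl1 at 727 and 22.1 CPM. All 9 genes were higher in the first sub-cluster given for each stage than in the last, and no share over all genes was computed. These cluster values pool the libraries and carry no test.

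The Col1a1-led mesenchymal-like cells held the highest Dlk1 level of any named class at P3. Only P3 libraries A and B had the 20 cells required for a test, so no stage was compared, and the values come with exact 95% Poisson intervals that cover counting error only. Dlk1 was at 2428 to 3498 CPM over the E16.5 libraries (64 cells in all) and at 2636 CPM in library A (2510 to 2767), 1643 in B (1498 to 1798), 2828 in C (2501 to 3186) and 702 in D (494 to 968). Libraries A and C, with 58 and 19 cells, lay within the E16.5 range and library D, with 11 cells, was the lowest. Cdkn1c was at 386 to 1240 CPM at E16.5 and 355 to 646 CPM at P3, Plagl1 at 371 to 1522 and 337 to 645 CPM, and Ndn at 100 to 291 and 56.9 to 254 CPM. At P3 the class fell into 3 sub-clusters with Dlk1 at 5091 CPM (33 cells, with the mesothelial genes Msln and Upk3b among their leading genes), 2086 CPM (43 cells) and 1354 CPM (43 cells).

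**Figure D4:**
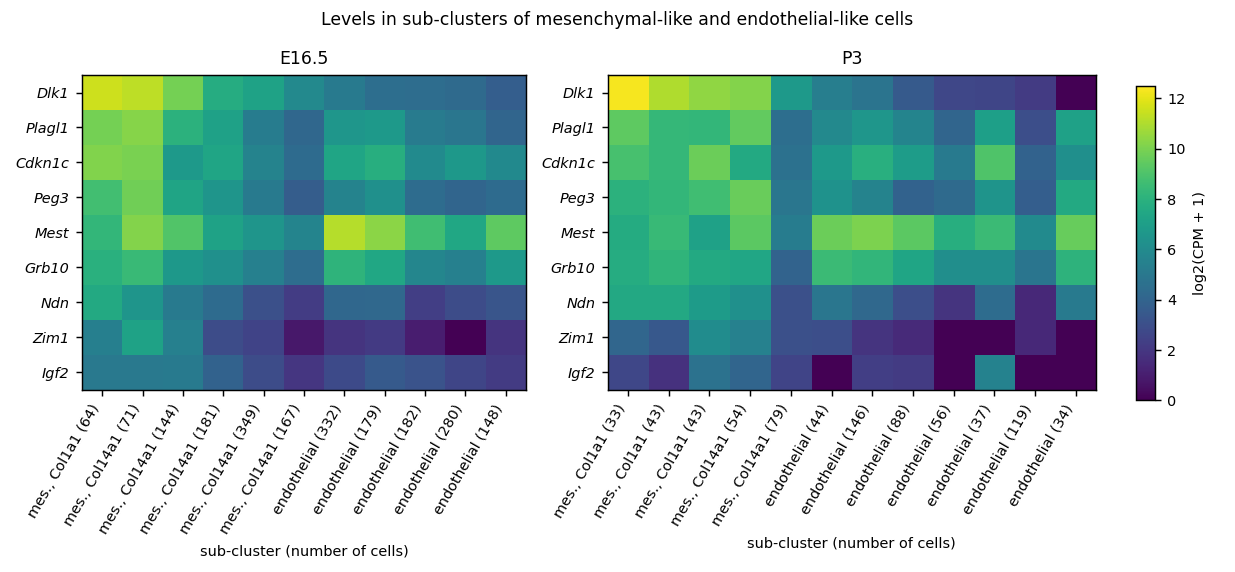
Colour gives log2(CPM + 1) of each gene (rows) in each sub-cluster (columns, with its number of cells, mes. for mesenchymal-like) at E16.5 (left) and P3 (right), pooled over libraries. Dlk1, Plagl1 and Peg3 are high in the Col1a1-led sub-clusters and in part of the Col14a1-led ones, and Mest is high in most endothelial-like ones.

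In endothelial-like cells, where its level was highest, Mest fell. It read 1785, 1621, 911, 1426 and 1162 CPM at E16.5 and 483, 393, 772 and 767 CPM at P3, without overlap. The log2 fold change was -1.35 (adjusted p = 1.02e-05, SE 0.18), and its call held in every alternative run. Summed marker levels in this class differed between the stages without overlap, at 3206 to 5234 and then 6402 to 8871 CPM for the 10 endothelial markers, 3137 to 7063 and then 8720 to 24352 CPM for the 11 neutrophil markers, 248 to 386 and then 572 to 910.5 CPM for the 9 macrophage markers and 61.8 to 214 and then 230.2 to 379 CPM for the 12 mesenchymal markers, and their part in the fall of Mest was not tested. 7 of the 9 genes passed the filter and 2 were lower at P3 and none higher, beside 32.1% called in either direction of the 9345 genes tested. The other was Dlk1, at 13.9 to 37.1 CPM and then 7.86 to 23.1 CPM, overlapping ranges whose estimated change of -0.98 (adjusted p = 0.0308, SE 0.35) lost its call without any 1 of 4 libraries (Jag1Ndr/+ replicate 1, Jag1Ndr/Ndr replicate 2, or P3 library B or D), with estimates of -1.28 to -0.79 over the fits without 1 library. It was not called with replicate number as a block either (-0.95, adjusted p = 0.0537), nor without libraries A and B (-0.87, adjusted p = 0.169), and after thinning it did not pass the filter.

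Cdkn1c, which fell in the other 2 classes, read 155, 131, 119, 191 and 162 CPM at E16.5 and 89.1, 248, 154 and 96.7 CPM at P3 in endothelial-like cells. The highest and the lowest value both belonged to P3 libraries, B and A, and the log2 fold change of -0.22 (adjusted p = 0.503, SE 0.25) did not pass the test, while without library B it was -0.58 (adjusted p = 0.0202). A P3 sub-cluster of 37 cells with Vwf, Eln and Ednrb among its leading genes held Cdkn1c at 523 CPM, against 14 to 238 CPM in the other P3 endothelial-like sub-clusters. Grb10, the signalling adaptor, was at 109 to 220.5 CPM at E16.5 and 156 to 241 CPM at P3, and Plagl1, Peg3 and Ndn overlapped between the stages as well, though Plagl1 was called lower without Jag1Ndr/+ replicate 1 (-0.49, adjusted p = 0.0319). The thinned share of endothelial-like cells with a Mest UMI was 38.9 to 60.5% before birth and 29 to 50.4% after it, which overlapped, while in erythroid-like cells it was 0.378 to 0.747% and 0.0619 to 0.167%.

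Erythroid-like cells held each of the 9 genes at a lower mean level than hepatocyte-like cells did at E16.5, and each but Ndn at P3. For Ndn at P3, hepatocyte-like cells had 1, 0, 0 and 0 UMIs and erythroid-like cells 4, 1, 1 and 2, so no order is read. Over the 11 classes compared between stages, 53 of the 73 pairs of gene and class tested were lower at P3 and none was higher, beside 21.6% lower and 21.1% higher among all 105804 pairs. In erythroid-like cells 8 of 9 genes were lower, beside 22.8% of all genes there, and in macrophage-like cells 7 of 7, beside 25.6%. A gene high at E16.5 alone can pass the low-count filter in any class by being high there, so these counts are descriptions. In erythroid-like cells, Dlk1 was at 7.18 to 17.8 CPM at E16.5 and 0.127 to 1.51 CPM at P3. Relative to hepatocyte-like cells of the same library this was 0.701 to 1.27% at E16.5, where the same ratio for Alb, a hepatocyte RNA, was 0.719 to 1.01%. At P3 it was 1.26 to 11.5% for Dlk1, whose hepatocyte-like level had fallen, 0.427 to 1.58% for Igf2 and 0.109 to 0.305% for Alb. At E16.5 the ratio for Igf2 was 0.982 to 1.95% and for Grb10 1.49 to 3.71%. The 10 hepatocyte markers summed to 1291 to 2277 CPM in erythroid-like cells at E16.5 and to 225 to 512 CPM at P3, and the part of free RNA in the blood values was not tested. Ndn in megakaryocyte-like cells was at 4.26, 5.01, 8.30, 2.36 and 6.29 CPM at E16.5 and 6.22, 8.50, 3.86 and 7.17 CPM at P3, overlapping and with a log2 fold change of 0.03. In basophil and mast-like cells it was at 5.17, 3.26, 8.22, 8.60 and 5.62 CPM and then at 5.59, 2.44, 1.59 and 0 CPM, which overlapped too. At E16.5 both classes overlapped in Ndn with hepatocyte-like cells, and basophil and mast-like cells gave 14.2% of the Ndn UMIs.

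Whether the change between stages differed between hepatocyte-like and Col14a1-led mesenchymal-like cells was tested as an interaction. It passed for 3 of the 9 genes, Dlk1, Cdkn1c and Ndn, all with the higher log2 fold change in mesenchymal-like cells, beside 4.55% of the 8575 genes tested in that direction. For Dlk1 the log2 fold change was higher in mesenchymal-like cells by 5.72 (adjusted p = 3.32e-11, SE 0.40), and the call held in every alternative run. For Cdkn1c the difference was 1.39 (adjusted p = 0.0231, SE 0.41), but 0.32 (adjusted p = 0.741) without library A and -0.01 without libraries A and B, and it was not called with DESeq2 (1.33, adjusted p = 0.0633) or after thinning (1.67, adjusted p = 0.0997). For Ndn it was 3.01 (adjusted p = 0.0494, SE 1.05), a value that rests on 1 UMI in P3 hepatocyte-like cells, is no bound, and lost its call in 8 of 9 fits without 1 library, which ran from 2.65 to 5.45, and with the replicate block (2.88, adjusted p = 0.0703). Ndn had not passed the low-count filter in hepatocyte-like cells, so no difference is read from this value. Mest, at 1.40 (adjusted p = 0.0931, SE 0.51), and Plagl1, at 2.25 (adjusted p = 0.184, SE 0.95), did not pass. Library totals in place of TMM called both, at 2.52 and 3.24, and Peg3, at 1.13, in a fit whose median over all genes was 0.96. Both were also called without the low-count filter (1.35 for Mest, adjusted p = 8.01e-04, and 2.20 for Plagl1, adjusted p = 0.00284) and without Jag1Ndr/Ndr replicate 1 (1.80, adjusted p = 0.00868, and 2.77, adjusted p = 8.45e-04). Mest was called without Jag1Ndr/+ replicate 1 too (1.30, adjusted p = 0.0350), and Plagl1 with DESeq2 (2.32, adjusted p = 0.0433) and after thinning (3.05, adjusted p = 0.0292), as was Peg3 (1.62, adjusted p = 4.59e-04).

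Among the classes with at least 20 cells per library at E16.5, which leaves out the Col1a1-led cells, the mean level was highest in hepatocyte-like cells for Igf2, Dlk1, Grb10, Cdkn1c and Peg3, and the lowest hepatocyte-like library was above every library of the next of these classes for each of the 5. Plagl1, Ndn and Zim1 were highest in Col14a1-led mesenchymal-like cells and Mest in endothelial-like cells. Ndn overlapped there with the next class, endothelial-like cells, and Zim1 with hepatocyte-like cells. The few Col1a1-led cells at E16.5 lay higher for Dlk1, Plagl1 and Ndn, in each library above every library of those leading classes, and reached 222 to 735 CPM for Peg3 and 386 to 1240 CPM for Cdkn1c, overlapping with hepatocyte-like cells. At P3 the Col1a1-led cells of libraries A and B stood first for Dlk1, Cdkn1c, Plagl1, Ndn and Zim1, for Zim1 overlapping with Col14a1-led cells. Hepatocyte-like cells stood first for Igf2, Peg3 and Grb10, each overlapping with the next class, and endothelial-like cells for Mest. Unnamed barcodes took no part in the order at either stage.

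Jag1 genotype was compared at E16.5, with 2 Jag1Ndr/Ndr libraries against 3 without that label. None of the 9 genes passed the test in whole libraries, where the edgeR fit called 0% of 16117 genes, DESeq2 called 4, and 171 lay below an unadjusted p of 0.05. None of the 83 pairs of gene and class passed within classes, where 0.0017% of 117306 pairs did, 2 in all, against 61 with replicate number as a block, 1 of them a pair of these genes. In whole libraries the log2 fold changes of the homozygous libraries ran from -0.19 for Mest to 0.31 for Ndn, with SEs of 0.14 to 0.37.

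The smallest unadjusted p was that of Dlk1 in the shallow hepatocyte-like barcodes, at 181, 175, 155, 242 and 284 CPM with the homozygous libraries last. They were the 2 highest, and the estimate on the log2 scale was 0.67 (adjusted p = 1.00, SE 0.25). Cdkn1c in the same barcodes was at 83.3, 40.7, 42.6, 172 and 55.1 CPM, with homozygous replicate 1 alone high. The corresponding estimate was 1.14 (adjusted p = 1.00, SE 0.74), and it became a call of 1.81 (adjusted p = 5.08e-04) without homozygous replicate 2, when 1 homozygous library remained, and -0.06 without homozygous replicate 1. With the replicate block it was called, at 1.23 (adjusted p = 0.00104). In deep hepatocyte-like cells Dlk1 gave 0.21 (SE 0.26) and Igf2 0.22 (SE 0.16).

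At P3, 1 library carried only the homozygous label and 1 only the heterozygous label, so there was no test. The exact 95% Poisson intervals of libraries C and D, for counting error only, overlapped for 8 of the 9 genes in hepatocyte-like cells, 8 in Col14a1-led mesenchymal-like cells and 9 in endothelial-like cells. In whole libraries they overlapped for 4 and lay apart for 5, with Dlk1 and Mest higher in library C and Peg3, Grb10 and Zim1 higher in library D. How many of all genes lay apart in the same way was not counted, in whole libraries or in classes. These counts are therefore no result about the 9 genes. Whole-library Dlk1 was at 5.14 CPM in library C (445 UMIs, interval 4.67 to 5.64) and 1.66 CPM in library D (105 UMIs, interval 1.36 to 2.01). The exception in hepatocyte-like cells was Peg3, at 356 CPM in library C (133 UMIs, interval 298 to 422) and 524 CPM in library D (261 UMIs, interval 463 to 592). Libraries A and B lay between, at 435 and 364 CPM. In Col14a1-led mesenchymal-like cells it was Dlk1, at 571 CPM in library C (54 UMIs, interval 429 to 745) and 261 CPM in library D (20 UMIs, interval 159 to 403), beside 658 and 313 CPM in libraries A and B of unclear genotype.

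The other imprinted genes did not share 1 direction. Of 61 listed, 28 passed the filter in hepatocyte-like cells, of which 3 were higher and 8 lower at P3, beside 19.2% higher and 18.8% lower of all genes tested there, with a median log2 fold change of -0.13 beside -0.04 over all genes. The higher ones were Slc22a18 (1.30), a neighbour of Cdkn1c and a transporter gene, the amino acid transporter Slc38a4 (0.98) and Mcts2 (0.85). Igf2r, which clears IGF2 from the cell surface, had the largest fall, with 159.8 to 255 CPM before birth and 28 to 72.2 CPM after it. Gatm (-1.88), Peg10 (-1.73), Phlda2 (-1.68), Commd1 (-1.01), Sgce (-0.90) and Gnas (-0.80) fell too, as did Usp29 (-1.12), which lies beside Peg3. In Col14a1-led mesenchymal-like cells 3 of 14 tested were higher and 3 lower, beside 11.3% and 13.3% of all genes. In endothelial-like cells 4 of 25 were higher and 9 lower, beside 32.1% of all genes called in either direction.

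Among 17 genes of the IGF pathway, the one in which Igf2 and Grb10 act, 15 passed the filter in hepatocyte-like cells, with 6 higher and 5 lower at P3, beside the same 19.2% and 18.8% of all genes. Igf1, the growth factor that takes over after birth, was at 4.47 to 24.7 CPM and then at 42.2 to 86.1 CPM (log2 fold change 2.69). The binding proteins Igfbp2 (8.87 to 24.4 CPM and then 3343 to 4841 CPM, 8.25) and Igfbp1 (2.28), and Igfals (2.18), which stabilises IGFs in plasma, rose, as did Igfbp4 (0.58) and Igf2bp3 (0.44). Overlaps with other annotated genes were examined for the 9 genes only. The part of the differing gene lists and counting software in the Igfbp2 values was not tested. Igfbp3 (-3.74), the RNA-binding protein gene Igf2bp1 (-1.80), Irs1 (-1.26) and the receptor gene Igf1r (-1.01) fell beside Igf2r. Igf2 and Igf1 thus moved in opposite directions in these cells.

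The genes whose levels were most like each of the 9 were sought over 109 sums of 1 class in 1 library, which share libraries and free RNA, among 10003 genes, as a description by Pearson's r of log2(CPM + 1). For Dlk1 they were Smarca1 (r = 0.88), Cdkn1c (r = 0.86) and Zim1 (r = 0.85), and for Igf2 Morc4 (r = 0.89), Igdcc4 (r = 0.89) and Bche (r = 0.88). Ghr, the growth hormone receptor gene, came first for 3 of them, Peg3 (0.93), Grb10 (0.92) and Cdkn1c (0.89). Plagl1 was most like matrix genes, Col5a2 (r = 0.97), Col14a1 (r = 0.95) and Bgn (r = 0.95). Mest was most like Nr2f2 (r = 0.96), Serpinh1 (r = 0.96) and Nid1 (r = 0.95), Ndn like Fstl1 (r = 0.88), Cavin3 (r = 0.87) and Ppic (r = 0.87), and Zim1 like Fgfr2 (r = 0.91), Cdh2 (r = 0.91) and Agtr1a (r = 0.91).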

How the data were processed

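The deposited values were whole-number UMI counts per gene and barcode. Cell Ranger 2.1.1, R 4.1.2, Seurat and build mm10 are named per the submitters' processing notes, and 10x software 3.0.2 (P3) and 3.1.0 (E16.5) per the file headers. The genes and lists were chosen with earlier results of these data known. Identical or overlapping matrices were reduced to 9 libraries, and marked doublets were left out. Barcodes were clustered per stage (scanpy 1.11.5, Leiden resolution 1, igraph 0.11.9). Counts were summed per library and class with at least 20 cells per library, over the 22519 genes in both lists. edgeR 4.0.16 (R 4.3.3; TMM, low-count filter, quasi-likelihood test, Benjamini-Hochberg adjustment over all genes or gene and class pairs, threshold 0.05) compared stage, genotype at E16.5 and the interaction. The fit was tested on simulated counts. Alternatives included DESeq2 1.42.0, RLE, no filter, doublets kept, thinning, a replicate block and leaving out libraries. Deviations of same-numbered E16.5 libraries from their group means correlated over genes at 0.33, 0.131 and 0.349 in whole libraries, and the replicate numbers were taken as pairing them. The deviations of the homozygous libraries mirror each other. The last value therefore follows from the same deviations as the others and is no separate support. The pairing was read at E16.5 only, while the block was also used in the stage fits, which include P3. Within classes the correlations were not all positive. They were 0.228, -0.0111 and 0.202 in hepatocyte-like, 0.132, -0.0521 and 0.0579 in Col14a1-led mesenchymal-like, 0.192, -0.0848 and 0.0746 in endothelial-like and 0.44, 0.0953 and 0.381 in erythroid-like sums. All 9 genes were described, and by rule the 3 genes most like each.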

Additional observations from a re-analysis of the deposited data

Results flagged for a closer look

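Igf2 in E16.5 hepatocyte-like cells was at 147.3 CPM in Jag1Ndr/Ndr replicate 1, far from the nearest of the other 4 libraries at 122.1 CPM. Ndn in P3 hepatocyte-like cells was at 0.7255 CPM, 1 UMI, in library A and at 0 in the other 3. For values on a continuous scale, chance alone gives such a distance in about 1 in 20 groups, and these were 2 of 72 groups examined. A group holding 1 UMI in all always meets the rule, so that rate does not apply to Ndn.

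The interaction test of stage between Col14a1-led mesenchymal-like and hepatocyte-like cells passed for Dlk1 (5.716 on the log2 scale) and Cdkn1c (1.391), each with the smaller fall in mesenchymal-like cells, though that of Cdkn1c was not called without library A (0.32, adjusted p = 0.741). It also passed for Ndn (3.009), which rests on 1 UMI in P3 hepatocyte-like cells, where the gene had not passed the low-count filter, and lost its call in 8 of 9 fits without 1 library, so no difference is read from it.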

How the results depend on the processing

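In whole libraries the other 8 genes kept their direction and call in every alternative run, and Ndn did not. The classes merged, the globin genes left out and the library totals without TMM were chosen after seeing the data. Merging added shallow hepatocyte-like barcodes at E16.5 only, as P3 held no such class in the main clustering. The cause was not tested for any change given here. Library totals moved the median of all genes to 0.56 in whole libraries, where 6621 genes were then higher and 1172 lower, against 3878 and 3716.

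Thinning left 22 gene and class pairs called, of 20973 in all. The interaction called 1 of the 9 genes without libraries A and B and 6 with library totals, and over all genes 294 after thinning, 449 without A and B and 2350 with library totals. Leaving out 1 library gave 1 to 5 of the 9 genes. For genotype in whole libraries DESeq2 called 4 genes and no filter 3, and leaving out 1 library 0 to 2. Within classes genotype gave 16 pairs with DESeq2, 246 without a filter, 4 with doublets kept, 0 thinned and 1 at resolution 0.5, and 30 to 136 without 1 library, with 0 to 1 of them among the 9 genes.

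The replicate block called 61 pairs for genotype within classes, 1 of them among the 9 genes (Cdkn1c in shallow hepatocyte-like barcodes, 1.23), and gave Peg3 0.036 in hepatocyte-like cells. Besides the calls given with the results, it ended that of Peg3 in basophil and mast-like cells (-1.22, adjusted p = 0.0660) and changed no other call among the 9 genes.

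Directions turned as follows. In hepatocyte-like cells Peg3 was 0.053 without A and B, 0.20 merged (shallow barcodes added at E16.5 only), and -0.16 to 0.088 without 1 library. In mesenchymal-like cells, thinning gave Dlk1 0.27, Plagl1 0.73 and Mest 0.18, library totals gave Plagl1 0.21 and Ndn 0.67, leaving out A and B gave Peg3 -0.23 and Ndn 0.35, merging gave Ndn 0.45, and leaving out 1 library gave Ndn -0.35 to 0.12. In endothelial-like cells, thinning gave Cdkn1c 0.35, Plagl1 0.18 and Grb10 0.28, library totals gave Peg3 0.027 and Grb10 0.044, and leaving out 1 library gave Peg3 -0.36 to 0.11 and Ndn -0.47 to 0.0014. In the interaction, leaving out A and B gave Igf2 -0.15, Cdkn1c -0.014, Peg3 -0.53 and Zim1 0.38, merging gave Igf2 -0.16, Peg3 -0.33 and Zim1 0.056, library totals gave Grb10 0.59 and Zim1 1.06, thinning gave Grb10 0.21, no filter gave Peg3 -0.012, and Zim1 was 0.10 with RLE, 0.22 with DESeq2 and 0.17 without globin genes. Leaving out 1 library gave interactions of -0.79 to 0.78 for Igf2, -0.13 to 0.38 for Peg3 and -0.47 to 0.75 for Zim1. At resolution 0.5 no deep hepatocyte-like class formed at P3, so its stage test and the interaction could not be fitted. The P3 hepatocyte-like values rest on 185 cells.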

Other observations

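Some imprinted RNAs next to the 9 genes were listed at E16.5 only and are given as values without a comparison between stages. H19, the long non-coding neighbour of Igf2, was at 5391 to 6667 CPM in hepatocyte-like cells, 308 to 727 CPM in Col14a1-led mesenchymal-like cells, 311 to 452 CPM in endothelial-like cells and 82.8 to 188 CPM in erythroid-like cells. Its mean was 10.6 times as high in the deep hepatocyte-like barcodes as in the shallow ones, and higher in 5 of 5 libraries. Meg3, the non-coding neighbour of Dlk1, was at 815 to 1538, 218 to 638, 32 to 58.8 and 5.48 to 15.4 CPM in the same 4 classes. Kcnq1ot1, the antisense RNA of the Cdkn1c region, was at 252 to 402 CPM in hepatocyte-like and 105 to 184 CPM in endothelial-like cells.

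Phactr2, the neighbour of Plagl1, was at 30.5 to 62.5 CPM in Col14a1-led mesenchymal-like cells at E16.5 and 82.7 to 159 CPM at P3, and at 40.2 to 69.5 and 101 to 132 CPM in endothelial-like cells. Neither range overlapped between the stages. Peg10 in endothelial-like cells was at 59.3 to 211 CPM at E16.5 and 29.7 to 58.5 CPM at P3, again without overlap. Magel2, the neighbour of Ndn, was at 0 CPM in hepatocyte-like, Col14a1-led mesenchymal-like and endothelial-like sums of all libraries.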
